A study of Mus musculus with 4 samples.

Results

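Transcript levels of 10 tetraspanin genes, Cd9, Cd63, Cd81, Cd82, Cd151, Tspan1, Tspan3, Tspan4, Tspan8 and Tspan14, were read across 4 mouse oral cancer cell lines. They are 10 of the 34685 gene identifiers in the expression table. The genes belong to 1 protein family, and they were chosen by family and with their measured FPKM levels in these lines in view, so their levels and differences are given as a description without a test. The remaining 21 tetraspanins of the mouse in the table, and 68 genes whose proteins bind tetraspanins or form vesicles and lysosomes, were used for comparison.

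The lines came from male C57BL/6 mice whose buccal mucosa had been painted with the carcinogen DMBA, which forms adducts on DNA. AOC3 and AOC3-LN are the primary tumor line and the lymph node metastasis line of mouse 3, and AOC11 and AOC11-LN are the same pair from mouse 11. The cells were passed once through subcutaneous tumors in other mice, and fibroblasts were separated off with a fibroblast isolation kit. The labels name no drug or engineered allele in the cultures that were sequenced. Each line is 1 culture from 1 mouse with 1 library, so no difference between single lines has a replicate error, and mouse of origin, passage history and library cannot be told apart.

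Tetraspanins are small proteins that cross the membrane 4 times, with a short and a long loop outside the cell. They gather integrins, immunoglobulin-superfamily proteins and proteases into patches of membrane, and they are sorted into endosomes and extracellular vesicles, for which Cd9, Cd63 and Cd81 are the usual markers. In squamous epithelium and its cancers they are best known for their effect on adhesion and migration through laminin-binding integrins.

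Levels are given in FPKM, fragments scaled to the length of the transcript and to the size of the library, which can therefore be set side by side between genes. The libraries were scaled to an estimated 28300000 to 33800000 fragments. All 7 epithelial markers reached 1 FPKM in a line, with Epcam between 416 and 518 FPKM. The keratins of that list were not all even. Krt19 was at 3.65, 50.1, 111 and 63.3 FPKM in AOC3, AOC3-LN, AOC11 and AOC11-LN, a log2 difference of 3.52 between AOC3-LN and AOC3, and Krt5, a basal keratin, at 499, 275, 4.99 and 17.0 FPKM, a difference of 5.19 between the AOC3 and the AOC11 lines. The part of these keratin differences in the tetraspanin results was not tested. None of the 7 fibroblast markers (summed level 0.241 to 1.01 FPKM) and none of the 4 endothelial markers (0.251 to 0.392 FPKM) did. Of 7 leukocyte markers only Cd68, which also encodes a lysosomal protein of other cells, reached it, at 13.0, 8.79, 6.15 and 4.45 FPKM in the same order. The leukocyte markers together summed to 13.0, 8.87, 6.20 and 4.53 FPKM, Ptprc (CD45) did not exceed 0.064 FPKM, and Cd3e and Adgre1 were listed at 0 in all 4 lines. Cd37 and Cd53, the tetraspanins of leukocytes, stayed at or below 0.0376 FPKM.

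Cd81 and Tspan1 had the widest spread over the 4 lines, and the 250 bases before the annotated start of each gene are shown because the starts differ in base composition. Both were taken from RefSeq on build GRCm38.p6, and all 10 genes had an entry there. Capitals mark the GC box, the letters GGGCGG or, for the opposite strand, CCGCCC. The Cd81 sequence lies at chr7:143052500-143052749 on the plus strand and the Tspan1 sequence at chr4:116167599-116167848 on the minus strand.
Cd81: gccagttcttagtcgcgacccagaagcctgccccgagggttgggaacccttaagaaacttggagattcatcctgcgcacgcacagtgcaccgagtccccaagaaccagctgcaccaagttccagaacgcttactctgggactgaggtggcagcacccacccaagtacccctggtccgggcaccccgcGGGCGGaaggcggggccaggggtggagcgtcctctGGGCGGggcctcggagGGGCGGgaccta
Tspan1: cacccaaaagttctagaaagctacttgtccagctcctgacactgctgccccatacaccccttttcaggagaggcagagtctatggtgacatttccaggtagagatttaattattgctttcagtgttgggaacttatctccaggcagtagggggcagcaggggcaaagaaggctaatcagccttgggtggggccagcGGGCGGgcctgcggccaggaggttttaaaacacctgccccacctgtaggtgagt

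The Cd81 window held 3 GC boxes, 16 CG dinucleotides and 65.6% G and C. The Tspan1 window held 1 GC box, 3 CG dinucleotides and 53.6% G and C. Over 32851 windows of this length before mouse genes the median was 6 CG dinucleotides and 52.4% G and C, and 32.7% held a GC box on either strand. The CCAAT box (CCAAT), the TATA box (TATAAA) and the AP-1 site (TGACTCA), searched on both strands and present in 33.8%, 12.4% and 4.46% of windows, were found in neither sequence. The first window of Tspan4, the gene with the flattest profile, had 24 CG dinucleotides and 2 GC boxes, so a CG-rich start was seen in genes with a wide and with a narrow spread.

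Cd81 (ENSMUSG00000037706.17, chromosome 7, 143052739 to 143067934, mm10), a tetraspanin that pairs with several immunoglobulin-superfamily proteins on epithelial cells, was the member with the largest difference. Its level was 80.1 FPKM in AOC3, 6.13 FPKM in the lymph node line of the same mouse, 117 FPKM in AOC11 and 170 FPKM in AOC11-LN. AOC3-LN stood alone at the bottom, and the other 3 lines lay between 80.1 and 170 FPKM. The level in AOC3 was 13.1 times that in AOC3-LN, while the level in AOC11-LN was 1.46 times that in AOC11. Among the 14165 genes at 1 FPKM or more in any line, the percentile rank of Cd81 within its line was 90.8, 39.2, 93.8 and 95.7. In these bulk cultures a lower level in every cell and a smaller share of cells that express the gene cannot be told apart.

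**Figure D1:**
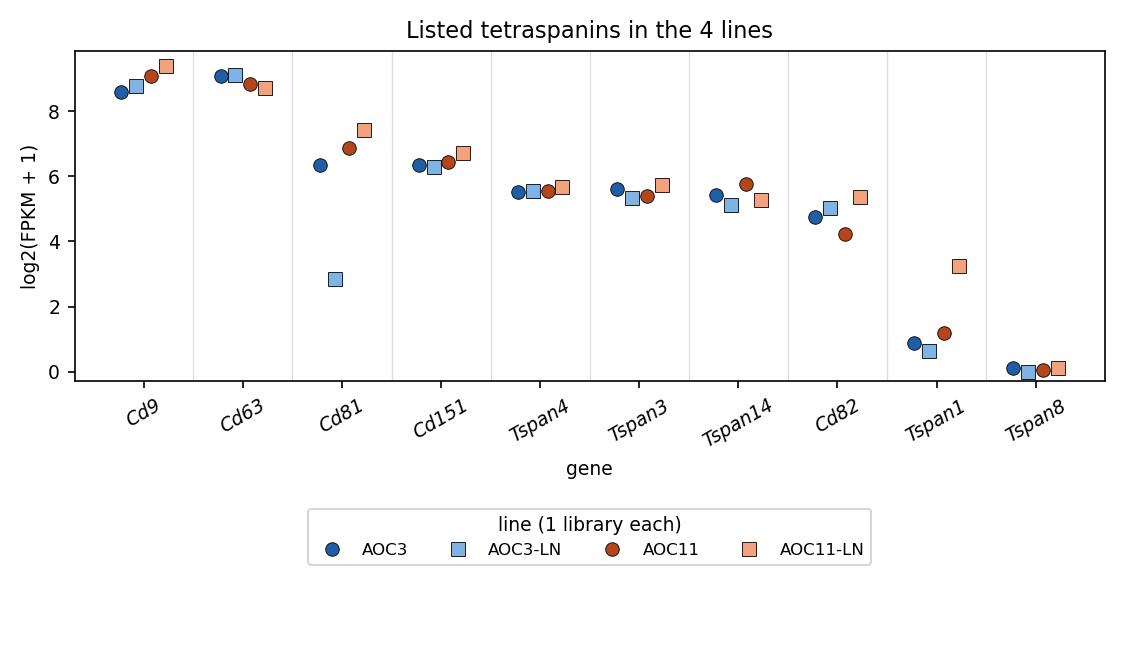
Levels of the 9 tetraspanins that reached 1 FPKM in a line and of Tspan8, which did not, on a log2(FPKM + 1) axis; each point is 1 library of 1 line. Cd9 and Cd63 sit at the top in all 4 lines, Cd81 is at 6.13 FPKM in AOC3-LN against 80.1 to 170 FPKM in the other lines, and Tspan1 exceeds 1.30 FPKM only in AOC11-LN.

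The level of Cd81 in AOC3-LN rests on few fragments but not on very few. With the estimated library size, 6.13 FPKM corresponds to between 46.8 and 251.9 fragments, depending on which of its 6 transcripts (425 to 1607 bases) is used for the length. The AOC3 level corresponds to between 697.8 and 3888.7 fragments on the same assumption. Such counting covers sampling error only and does not replace a second library.

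Differences were taken on log2(FPKM + 1) after quantile normalization of the lines, and those above 1 or below -1, a 2-fold change on that scale, were counted. The scale understates changes of genes with low levels. Cd81 differed by -3.48 between AOC3-LN and AOC3, and it was the 1 member of the 9 that reached 1 FPKM to lie below -1. None of the 9 lay above 1. Over all 14165 genes compared, 2.11% lay above 1 and 3.42% below -1, and the median was 0.02 against -0.11 for the members. Since the genes were chosen with this contrast in view, nothing is read from the members' count against that background.

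Between AOC11-LN and AOC11, 7 of the 9 members lay above 0, against 4 of the 9 in mouse 3. Of all 14165 genes, 6754 lay above 0 in mouse 11 and 7507 in mouse 3, and nothing is read from the members' counts. Tspan1 (1.90) and Cd82 (1.18) lay above 1, Cd81 followed inside the threshold at 0.50, and no member lay below -1. The median of the 9 members was 0.30, against -0.02 for all genes, of which 4.97% lay above 1 and 3.14% below -1. When the lines were scaled to a common median in place of quantile normalization, these shares became 6.49% and 2.52%. The direction of Cd81 was opposite in the lymph node lines of the 2 mice, with 1 line of each kind per mouse.

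**Figure D2:**
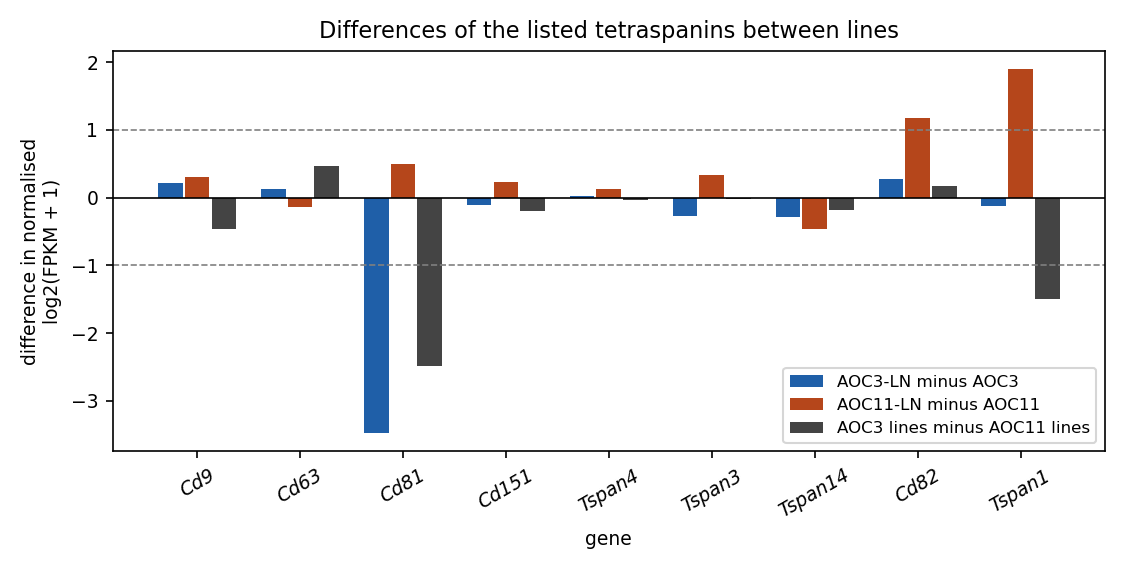
Log2 differences of the 9 tetraspanins that reached 1 FPKM in a line, as bars, for AOC3-LN minus AOC3, AOC11-LN minus AOC11 and the AOC3 lines minus the AOC11 lines; dashed lines mark 1 and -1, and each value is a difference between single libraries or between means of 2. Cd81 reaches -3.48 in mouse 3, Tspan1 reaches 1.90 in mouse 11, and most other values lie between the dashed lines.

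Cd82 (ENSMUSG00000027215.13, chromosome 2, 93419111 to 93463140), known as a suppressor of metastasis in several cancers, was measured at 26.1, 31.5, 17.6 and 39.9 FPKM in AOC3, AOC3-LN, AOC11 and AOC11-LN. Its lowest and its highest level were the 2 lines of mouse 11, which differed 2.27-fold. In both mice the lymph node line had the higher value, by 0.27 in mouse 3 and by 1.18 in mouse 11 on the log2 scale.

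Tspan1 (ENSMUSG00000028699.9, chromosome 4, 116161869 to 116167601), a tetraspanin of epithelial cells found on the cell surface and in lysosomes, was measured at 0.826, 0.556, 1.30 and 8.55 FPKM in the same order. It was low in 3 lines and 6.56 times higher in AOC11-LN than in AOC11. The lowest value corresponds to between 11 and 28.8 fragments and the highest to between 192.2 and 505.9 fragments. Tspan8 (ENSMUSG00000034127.15, chromosome 10, 115816832 to 115849893), a tetraspanin of digestive tract epithelium and its cancers, was at 0.0815, 0, 0.0304 and 0.0927 FPKM. These correspond to at most 3.7 fragments in any line, so no difference could be read at this depth.

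Cd9 and Cd63 were the most abundant members by far. Cd9 (ENSMUSG00000030342.8, chromosome 6, 125460266 to 125494791), which partners with integrins and with the immunoglobulin-superfamily proteins Ptgfrn and Igsf8, was at 381, 433, 538 and 668 FPKM in AOC3, AOC3-LN, AOC11 and AOC11-LN. Cd63 (ENSMUSG00000025351.14, chromosome 10, 128900989 to 128912822), a tetraspanin of late endosomes, lysosomes and the vesicles made there, was at 537, 557, 458 and 418 FPKM. Their order changed with the mouse. The ratio of Cd9 to Cd63 was 0.708 and 0.777 in AOC3 and AOC3-LN, and 1.18 and 1.60 in AOC11 and AOC11-LN. Cd9 differed by -0.46 and Cd63 by 0.46 between the AOC3 and the AOC11 lines on the log2 scale, both inside the threshold.

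Together Cd9 and Cd63 made up between 70.2% and 80.9% of the summed FPKM of the 10 members. That sum was 1239.7, 1223, 1357 and 1547 FPKM in AOC3, AOC3-LN, AOC11 and AOC11-LN, so the line with the least Cd81 had a sum close to that of its primary line. The share of Cd81 in the sum was 6.46% in AOC3 and 0.501% in AOC3-LN, against 8.61% in AOC11 and 11% in AOC11-LN. Among the 3 vesicle markers this changed the proportions. Cd9 exceeded Cd81 4.75-fold in AOC3, 4.60-fold in AOC11 and 3.92-fold in AOC11-LN, and 70.6-fold in AOC3-LN. Cd63 exceeded Cd81 6.71-fold, 3.92-fold and 2.45-fold in those 3 lines and 90.8-fold in AOC3-LN.

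The remaining 4 members varied little. Cd151 (ENSMUSG00000025510.14, chromosome 7, 141467392 to 141471473), the closest partner of the laminin-binding integrins, was at 79.9, 76.3, 85.1 and 103 FPKM. Tspan3 (ENSMUSG00000032324.11, chromosome 9, 56131725 to 56165477), a broadly expressed tetraspanin, was at 47.8, 39.5, 41.0 and 51.9 FPKM. Tspan4 (ENSMUSG00000025511.14, chromosome 7, 141475240 to 141493427), known from the migrasomes that moving cells leave behind, was at 44.6, 45.7, 46.1 and 49.5 FPKM. Tspan14 (ENSMUSG00000037824.6, chromosome 14, 40906445 to 40966807), which carries the protease ADAM10 to the cell surface, was at 42.1, 34.0, 53.1 and 37.8 FPKM. The highest line exceeded the lowest 1.34-fold for Cd151, 1.31-fold for Tspan3, 1.11-fold for Tspan4 and 1.57-fold for Tspan14.

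Tspan14 was lower in the lymph node line of both mice, with log2 differences of -0.29 and -0.46, and Cd9 was higher in both, with 0.21 and 0.30. Cd63, Cd151 and Tspan3 had opposite signs in the 2 mice with differences between -0.27 and 0.33, though with median scaling Cd151 had 0.01 and 0.29. Tspan4 differed by 0.03 and 0.12. From the highest level down, AOC3 had Cd63, Cd9, Cd81, Cd151, Tspan3, Tspan4, Tspan14, Cd82, Tspan1 and Tspan8. Cd81 took the third place in AOC3, AOC11 and AOC11-LN, and in AOC3-LN it stood below Cd82 and above Tspan1 and Tspan8. Cd81 and Cd151 differed by little in AOC3, and with 1 library per line no spread was available to set apart neighbors in this order. The genes of Cd151 and Tspan4 start 7.85 kb apart on chromosome 7, and the ratio of their levels lay between 1.67 and 2.07 in all 4 lines. The span of Tspan4 overlaps that of Chid1 on the opposite strand (15.3 to 18.1 FPKM). The counting is described as run with default parameters, which do not use strand. Fragments from any exon bases that both genes share therefore cannot be told apart by strand. Only the spans of whole genes were compared, and shared exons were not looked for. The same holds for Cd9 and the opposite-strand transcripts Gm26728 (6.97 to 15.3 FPKM) and Gm28809 (1.57 to 6.81 FPKM).

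Between the 2 mice, 2 members lay below -1 and none above 1. Tspan1 differed by -1.50 and Cd81 by -2.49 between the AOC3 and the AOC11 lines, and the median of the 9 was -0.19. Over all genes 5.10% lay above 1 and 6.00% below -1, with a median of 0.01. The Cd81 value turned on AOC3-LN. Without that line it was -0.75 and only Tspan1 passed, and without AOC3 it was -4.22. Without AOC11-LN the Tspan1 value was -0.55 and only Cd81 passed, and without AOC11 it was -2.45. Cd82 changed sign with the line left out, from 0.17 with all lines to -0.42 without AOC11.

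Over the 4 lines, 3 of the 9 members (Cd81, Cd82 and Tspan1) had a log2 range above 1, and the median range of all 9 was 0.59. Of all genes 28.3% had a range above 1, with a median of 0.69. Among the other 10 tetraspanins that reached 1 FPKM it was 7 of 10, with a median of 1.30. Cd63, Cd151, Tspan3, Tspan4 and Tspan14 lay below the median range of all genes, and Cd9 close to it at 0.72.

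Cd81 was compared with 6710 protein-coding genes with a mean of at least 10 FPKM. Likeness was measured as the Euclidean distance between log2 profiles centered on their mean over the 4 lines, for which the median was 3.54, and 4 points from 4 libraries allow only a description. The closest was Tmem176a at a distance of 0.76, with 24.9, 0.357, 17.6 and 33.6 FPKM in AOC3, AOC3-LN, AOC11 and AOC11-LN. Ptms followed at 0.87 with 175, 31.1, 261 and 613 FPKM. Like Cd81, both were lowest in AOC3-LN and highest in AOC11-LN. Rhoc, a small GTPase of cell movement, was at 1.01, with 148, 34.5, 330 and 462 FPKM. Tmem176b, which lies beside Tmem176a, was at 1.02, with 46.6, 0.669, 31.1 and 56.6 FPKM. Nfkbie, an inhibitor of NF-kappaB, was at 1.13, with 8.07, 1.01, 18.3 and 18.2 FPKM.

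The genes around Cd81 on chromosome 7 were read to see whether they shared its profile. Its nearest kept protein-coding neighbor, Tssc4, starts 16.5 kb away and was at 15.1, 14.5, 17.0 and 23.3 FPKM, a difference of 0.01 between AOC3-LN and AOC3. Of 20 such genes within 1 Mb, 1 passed the threshold in that comparison, and it did so upward. It was Phlda2, at 17.6, 36.2, 17.4 and 16.8 FPKM (1.03). The other nearest genes, Tnni2, Lsp1 and Mrpl23 on one side and Cdkn1c on the other, differed by -0.06, -0.73, -0.07 and -0.02. Lsp1 was at 1.84 FPKM in AOC3 and 0.577 FPKM in AOC3-LN, low levels at which this scale understates a change. Mrpl23 was at 32.2 and 30.3 FPKM in these lines. In FPKM, Tssc4, Tnni2, Lsp1 and Mrpl23 had the same order of lines as Cd81, and Phlda2 and Cdkn1c did not. Farther away, Tnfrsf26 and Mrgpre also had this order, and the other genes of the 20 did not. As the share of all genes with this order was not counted, nothing is read from these matches. In the AOC11 pair 3 of the 20 passed, Dusp8 (-1.32), Ifitm10 (1.08) and Lsp1 (1.62), and between the mice 7 passed, as did 1573 of the 14165 genes. Of these 7, Syt8 (-1.26), Tnni2 (-1.30), Lsp1 (-1.61), Tnfrsf26 (-1.15) and Mrgpre (-1.01) lay below -1, as Cd81 did, and Ifitm10 (2.49) and Tnfrsf23 (1.51) above 1. R74862, a non-coding transcript that overlaps Cd81 on the opposite strand, was at 0.152, 0.0171, 0.958 and 1.01 FPKM. Fragments from any exon bases that R74862 shares with Cd81 cannot be told apart, as strand was not used. The tetraspanin Tspan32, which starts 47.7 kb away, was at 0.0632, 0.00426, 0.120 and 0.557 FPKM. R74862 and Tspan32 were both lowest in AOC3-LN, at levels too low to compare.

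**Figure D3:**
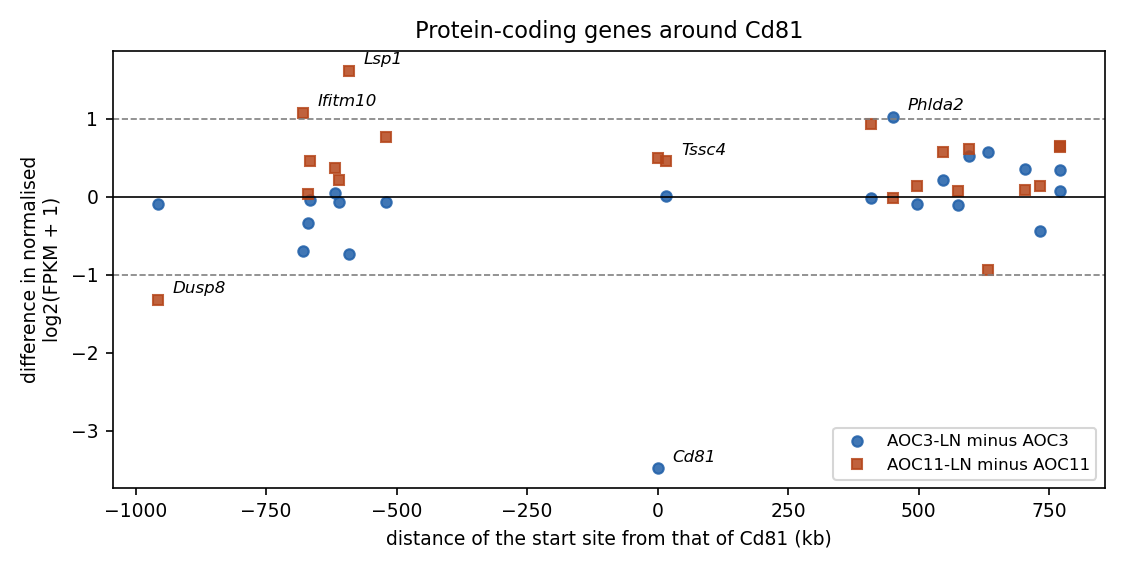
Log2 differences of Cd81 and of the 20 protein-coding genes within 1 Mb of it that reached 1 FPKM, against the distance of their start sites from that of Cd81 in kb; each point is a difference between 2 libraries. For AOC3-LN minus AOC3, Cd81 lies at -3.48 and Tssc4, 16.5 kb away, at 0.01.

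Among the 21 other tetraspanins, 10 reached 1 FPKM in a line. In AOC3-LN minus AOC3 none of them passed the threshold, and their median was 0.18. In AOC11-LN minus AOC11, 2 lay above 1, with a median of -0.07. These were Tspan12, a co-receptor of Norrin signaling, at 0.122, 0.233, 0.0538 and 2.57 FPKM (1.60), and Tspan17, an ADAM10 partner, at 0.708, 1.21, 4.17 and 11.1 FPKM (1.17). In FPKM both were highest in AOC11-LN, as were all members but Cd63 and Tspan14, and Tspan2, Tspan13 and Upk1a of these genes. The share of all genes that were highest in AOC11-LN was not counted.

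Between the mice, 3 other tetraspanins lay below -1 and 1 above 1, with a median of -0.33. Tspan17 differed by -1.97. Tspan13 was at 1.01, 1.07, 5.70 and 7.04 FPKM (-1.78) and Tspan2 at 0.552, 0.431, 3.73 and 4.10 FPKM (-1.66), so both AOC3 lines were below both AOC11 lines. Tspan7 was at 46.7, 68.1, 31.1 and 24.0 FPKM (1.08), which was 0.83 without AOC3-LN and 0.91 without AOC11-LN. Without AOC11, Tspan12 also lay below -1, at -1.44, and without AOC11-LN, Rom1 passed at 1.0 against 0.66 with all lines. Tspan31 was the most abundant of these genes in AOC3, at 81.1, 78.3, 70.2 and 64.1 FPKM. Its span overlaps that of Cdk4 on the opposite strand, which was at 601 to 965 FPKM. Fragments from any exon bases that both share cannot be told apart by strand, and shared exons were not looked for. Tspan9 ranged from 56.2 to 93.5 FPKM, Tspan5 from 8.60 to 18.2 FPKM, Rom1 from 3.37 to 7.78 FPKM and Upk1a from 0.660 to 1.10 FPKM.

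**Figure D4:**
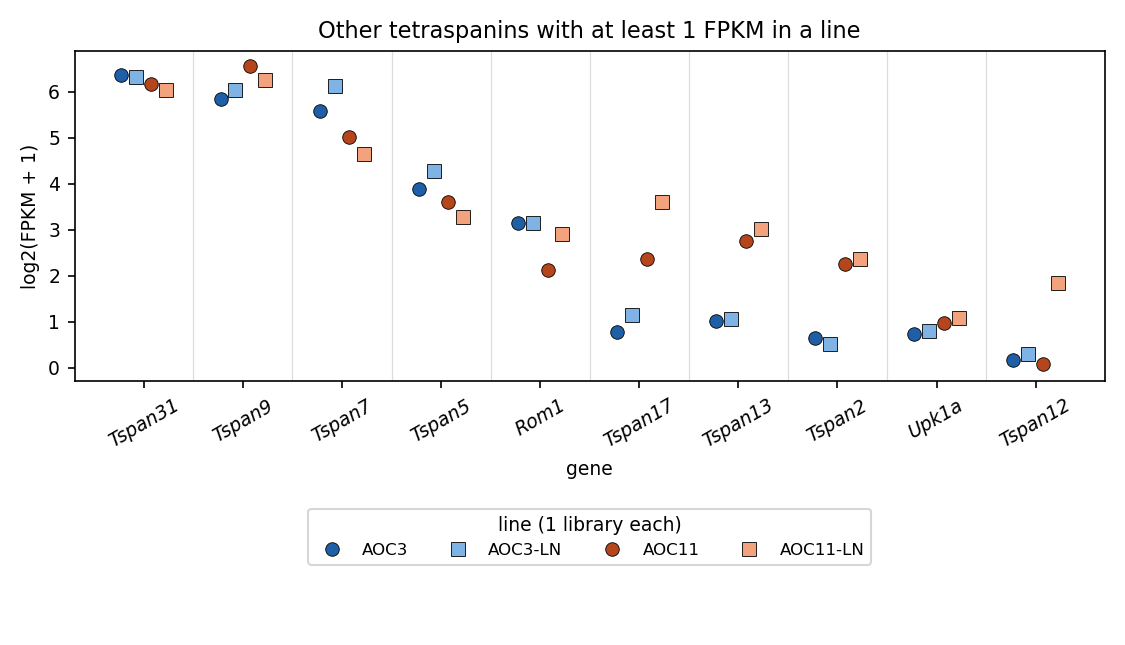
Levels of the 10 other tetraspanins that reached 1 FPKM in a line, on a log2(FPKM + 1) axis; each point is 1 library of 1 line. Tspan2, Tspan13 and Tspan17 are higher in both AOC11 lines than in both AOC3 lines, and Tspan12 reaches 1 FPKM only in AOC11-LN.

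The 10 members carried between 83.5% and 88.2% of the summed FPKM of all tetraspanins in the table. Tspan14 belongs to a subgroup of 6 tetraspanins that escort ADAM10, a protease that sheds surface proteins. Of these, Tspan5, Tspan14 and Tspan17 reached 1 FPKM. Adam10 itself was at 26.3, 19.0, 23.0 and 18.9 FPKM. It was lower in both lymph node lines than in the primary line of the same mouse, with differences of -0.41 and -0.26 inside the threshold. Tspan14 was also lower in both, but Tspan17 was higher in both, with 0.50 in mouse 3 and 1.17 in mouse 11. Tspan5 had 0.45 in mouse 3 and -0.34 in mouse 11.

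Of the 68 partner, vesicle and lysosome genes, 63 reached 1 FPKM. In AOC3-LN minus AOC3 none lay above 1 and 4 below -1, with a median of -0.11. Those 4 were Ifitm3, Cx3cl1, Flot2 and Hexa, and without quantile normalization 7 passed, all below -1. In AOC11-LN minus AOC11, 4 lay above 1 and 3 below -1, with a median of -0.22, and between the mice 4 lay above 1 and 12 below -1, with a median of -0.19. Over all genes the medians of these comparisons were 0.02, -0.02 and 0.01. The shares of all genes above 1 and below -1 were 2.11% and 3.42% in mouse 3, 4.97% and 3.14% in mouse 11, and 5.10% and 6.00% between the mice.

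The laminin-binding integrins, to which Cd151 binds, were abundant. Itga3 was at 326, 359, 241 and 189 FPKM and Itgb1 at 239, 247, 315 and 249 FPKM in AOC3, AOC3-LN, AOC11 and AOC11-LN. Itga6 was at 188, 260, 86.3 and 69.0 FPKM, so it was higher in both AOC3 lines (1.54), and Itga7 was at 8.54, 5.10, 22.6 and 10.9 FPKM (-1.05). None of the 5 passed the threshold within a mouse, and their medians were 0.12 in mouse 3 and -0.33 in mouse 11. In AOC3-LN, where Cd81 was lowest, Itga3 and Itga6 had their highest level of the 4 lines and Itga7 its lowest. Itgb1 and Itgb4 were highest in AOC11.

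The surface partners of Cd9 and Cd81 were less uniform. Ptgfrn, which binds both, was at 52.9, 31.6, 72.9 and 60.6 FPKM, and Igsf8, another partner of both, was at 27.2, 33.9, 62.1 and 40.6 FPKM. The differences between AOC3-LN and AOC3 were -0.73 and 0.31, both inside the threshold. Ifitm3, an interferon-induced membrane protein, was at 65.4, 22.2, 110 and 287 FPKM (-1.50 in mouse 3, 1.35 in mouse 11), and its close relative Ifitm2 was at 143, 77.5, 92.5 and 238 FPKM. As these 2 genes are similar in sequence, the split of fragments between them is uncertain. Ifitm3 had the same order of lines as Cd81, as had the members Cd151 and Tspan1.

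Other surface partners passed the threshold in the AOC11 pair or between the mice. In AOC11-LN minus AOC11, the growth factor receptor Egfr lay at -1.43 (16.6 and 5.64 FPKM in AOC11 and AOC11-LN), its ligand Hbegf at -1.42 (56.5 and 20.4 FPKM), and the tight junction protein Cldn1 at -1.40 (1.88 and 0.199 FPKM). Between the mice, Hbegf (1.86) was above 1, and Icam1 (-1.48), Igsf3 (-1.28) and Ifitm3 (-2.13) were below -1. Egfr had 15.5 and 11.3 FPKM in AOC3 and AOC3-LN. Epcam, which joins tetraspanin patches through Cldn7, was at 518, 509, 416 and 493 FPKM, and Cldn7 at 187, 202, 179 and 202 FPKM, so both were nearly flat.

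Among ADAM10 and its cargo, Cx3cl1, a chemokine that ADAM10 and ADAM17 release from the membrane, was at 21, 6.93, 10.7 and 33.6 FPKM (-1.41 in mouse 3 and 1.58 in mouse 11). Notch1, a receptor that ADAM10 cleaves, was at 2.66, 0.777, 13.0 and 12.7 FPKM (-2.37 between the mice), and the chemokine Cxcl16 at 114, 67.3, 218 and 153 FPKM (-1.02). Notch1 and Cxcl16 were lower in both AOC3 lines than in both AOC11 lines.

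Of the vesicle-forming genes, Flot2, which encodes a scaffold protein of the membrane, was at 8.98, 2.88, 15.9 and 24.4 FPKM (-1.23 in mouse 3, 0.62 in mouse 11) and its partner Flot1 at 12.2, 8.38, 33.3 and 24.1 FPKM. Both were lower in the AOC3 lines, with differences of -1.65 and -1.33. Flot2 had the same order of lines in FPKM as Cd81, as had Rab27a of this list. No other vesicle gene passed in any comparison. Sdcbp (syntenin), which loads syndecans and Cd63 into vesicles, was at 94.2, 89.6, 82.6 and 68.6 FPKM, and Pdcd6ip (ALIX), its partner, was at 99.3, 101, 82.5 and 68.5 FPKM. The differences in this list ran from -1.23 to 0.52 in mouse 3 and from -0.45 to 0.86 in mouse 11, with medians of -0.09 and -0.15.

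Among genes of the lysosome, to which Cd63 and Lamp1 are sorted, Lamp1 was at 202, 245, 264 and 204 FPKM. Hexa, a lysosomal enzyme, was at 2.94, 0.729, 5.95 and 15.5 FPKM (-1.08 in mouse 3 and 1.23 in mouse 11). In FPKM it had the same order of lines as Cd81, Ifitm3 and Flot2. So had Cd151, Tspan1, Tspan2, Vcam1 and Rab27a, and the share of all genes with this order was not counted. Between the mice, Timp1, a secreted protease inhibitor that also binds Cd63, was at 96.8 and 178 against 18.7 and 19.9 FPKM (2.75), and Ctsl at 924 and 1825 against 736 and 437 FPKM (1.30). Hexa (-1.99), Scarb2 (-1.07) and Tfeb (-1.01) were lower in the AOC3 lines.

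**Figure D5:**
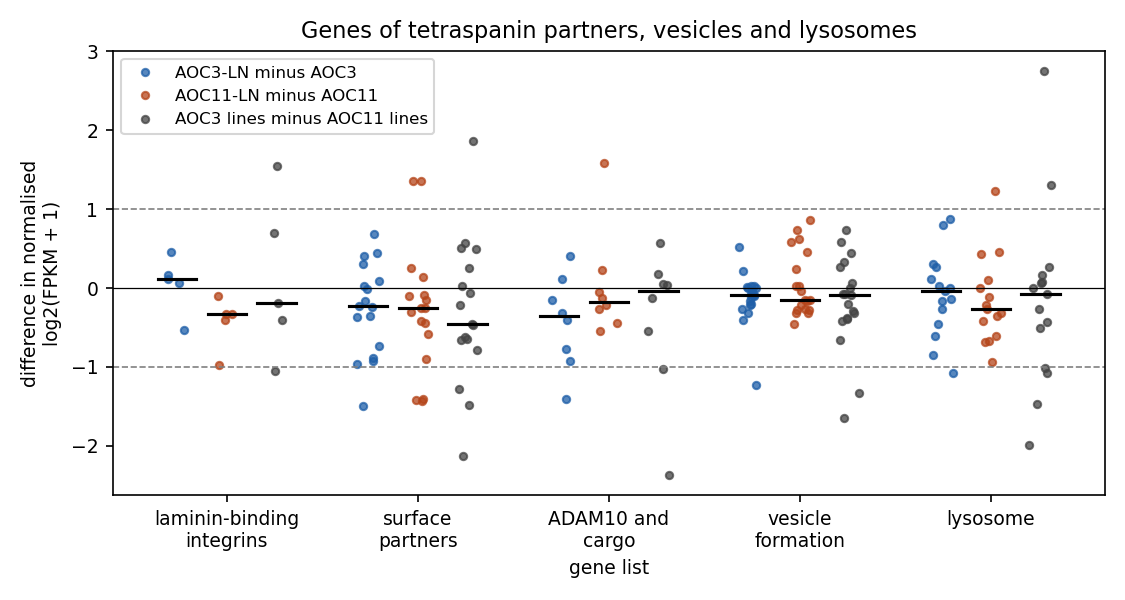
Log2 differences of the 63 partner, vesicle and lysosome genes that reached 1 FPKM, by list and comparison; each point is 1 gene, bars mark the median of a list and dashed lines mark 1 and -1. Of them, 4 pass in AOC3-LN minus AOC3, 7 in AOC11-LN minus AOC11 and 16 between the AOC3 and the AOC11 lines.

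These genes, being no members, were also read in a limma fit across all genes, where the 2 lines from each mouse served as its replicates. Such p-values measure the spread between lines that come from 1 mouse per group. Between the AOC3 and the AOC11 lines, limma with Benjamini-Hochberg adjustment called 0.205% of the 14165 genes at an adjusted p under 0.05. It called 0 of the 73 comparison genes, 27 of which had an unadjusted p under 0.05, as had 2643 of the 14165 genes. The lists of comparison genes were chosen with earlier results of these data known, so these counts are a description only. Without AOC3-LN the 27 became 9, and without any 1 of the 4 lines limma called 0 of all genes in place of 29. The smallest adjusted p in the limma fit was 0.0636, for Timp1 (2.75, SE 0.30), followed by Tspan13 (-1.78, SE 0.25) at 0.0880. Between lymph node and primary lines, with the mouse as a block, limma called 0.0141% of all genes and 0 of the 73, with 4 at an unadjusted p under 0.05, as had 405 of all genes. When only genes with at least 5 FPKM in a line were fitted, Timp1 passed between the mice, at an adjusted p of 0.0455 by limma.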

How the data were processed

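RNA from cultured cells of 4 lines was made into stranded mRNA libraries and sequenced as paired ends, 1 library per line. The authors used Trim Galore for trimming, TopHat2 for mapping to mm10 and Cufflinks with the GENCODE M21 models for FPKM. Default parameters were stated, which for these tools do not use strand. Versions are not given in the sources used here. The deposited FPKM are on a linear scale, and their distributions differ between lines. They were matched to GENCODE M21 symbols by identifier. Where a symbol had several entries (Tspan15 and Hgs), the entry with the highest mean was used. The unit holds no counts, so library sizes were estimated from the steps between low FPKM values of 9528 genes with 1 transcript longer than 800 bases. Between 71.6% and 74.8% of these values fell within 0.1 of a whole fragment, so no count test was run, and fragment numbers are approximate and cover counting error only.

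FPKM plus a pseudocount of 1 was log2-transformed and quantile-normalized over 34721 entries, and genes reaching 1 FPKM in any of the lines were retained. Differences above 1 or below -1 were counted. limma 3.58.1 in R 4.3.3 (lmFit, eBayes with trend, Benjamini-Hochberg adjustment) was fitted to all kept genes and read only for genes outside the members. The scripts were tested on simulated data. The members, lists and rules for named genes were chosen with earlier results of these data known. Named were all members, the other tetraspanins, partners past the threshold or with the largest differences or known to bind a member, the 5 genes most like Cd81 and its 3 nearest neighbors on each side. Some partners, such as Epcam, Cldn7, Lamp1, Sdcbp and Pdcd6ip, were named as abundant examples after their values were seen. Alternatives were another pseudocount, filter, scaling and threshold, and leaving out each line.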

Additional observations from a re-analysis of the deposited data

Results flagged for a closer look

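For 5 of the 9 members that reached 1 FPKM, the lymph node line differed from the primary line in opposite directions in the 2 mice. So did it for the 3 partner genes that passed the threshold in both mice. The share of all genes with opposite directions was not counted, so nothing is read from these numbers of genes. The values below are the log2 difference in mouse 11 minus that in mouse 3. None of them was tested, since each direction rests on 1 library per line. Cd81 had 3.98 and Tspan1 2.02. Cd63 had -0.27, Cd151 0.35 and Tspan3 0.60, with differences inside the threshold of 1 in both mice. For Cd151 the opposite direction was lost with median scaling, where it had 0.01 in mouse 3 and 0.29 in mouse 11. Of the partner genes, Cx3cl1 had 2.99, Ifitm3 2.86 and Hexa 2.31.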

How the results depend on the processing

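Of 130 alternative values for the differences of the members, none past the threshold changed sign, and 9 moved by 0.5 or more. Inside the threshold, the sign changed for Cd151 in AOC3-LN minus AOC3 with median scaling (0.01) and, between the mice with a line left out, for Cd82, Tspan3, Tspan4, Tspan8 and Tspan14. The values that moved included Tspan1, at 2.40 in AOC11-LN minus AOC11 and -2.20 between the mice with a pseudocount of 0.1, and Cd82 between the mice, at 0.76 without AOC11-LN. The number of members past the threshold between the mice ranged from 1 to 2 when a line was left out. The 4 partner genes past the threshold in AOC3-LN minus AOC3 became 7 with a pseudocount of 0.1, 7 without quantile normalization, 7 with median scaling and 15 at 1.5-fold. The 7 in AOC11-LN minus AOC11 became 16 at 1.5-fold. Of the other tetraspanins, 1 in place of 2 passed in AOC11-LN minus AOC11 with a filter of 5 FPKM, and 7 in place of 4 between the mice at 1.5-fold. limma called 1 comparison gene in place of 0 between the mice with that filter, and 0 between lymph node and primary lines without the mouse as a replicate block. Over all genes, median scaling gave 920 higher and 357 lower in AOC11-LN minus AOC11 against 704 and 445, and a pseudocount of 0.1 gave 1443, 2074 and 2627 genes past the threshold in the 3 comparisons against 783, 1149 and 1573. The cause was not tested. Single libraries and low fragment numbers, above all for Tspan1 and Tspan8, limit every value.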

Other observations

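The 11 tetraspanins that stayed under 1 FPKM in all lines summed to 1.12, 1.17, 0.725 and 2.27 FPKM in AOC3, AOC3-LN, AOC11 and AOC11-LN. Tspan33, which escorts ADAM10 as Tspan14 does, was at 0.0327, 0.213, 0.329 and 0.940 FPKM. Tspan6 was at 0.50, 0.55, 0.0949 and 0.432 FPKM, and Tspan15, another ADAM10 partner, at 0.350, 0.289, 0.0517 and 0.301 FPKM, so both were lowest in AOC11. At these levels the values rest on few fragments, and no difference was counted.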
